A study of Mus musculus with 4 samples.

Results

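The 10 genes described here encode the enzymes that write and erase N6-methyladenosine (m6A) on RNA. They were taken by symbol from the deposited table of 50559 genes: *Mettl3*, *Mettl14*, *Mettl16*, *Wtap*, *Virma*, *Zc3h13*, *Rbm15* and *Rbm15b* for the 8 writers, and *Fto* and *Alkbh5* for the 2 erasers. All 10 passed the filter on low counts, a mean of at least 10 reads, which left 18586 genes. Poly(A)+ RNA-seq had been done on E14 mouse embryonic stem cells (ESCs), a line grown in serum replacement with leukemia inhibitory factor. There were 4 libraries, 1 per group by the labels. The study's methods describe replicate libraries for RNA-seq, and whether a library here stands for a single culture or pooled ones was not given in the sources used here. The control carried a scrambled hairpin and an empty vector (shScram+EV). The knockdown carried a hairpin against *Ythdf2* and the empty vector (shYthdf2+EV). In the wild-type add-back this hairpin was combined with intact YTHDF2 (shYthdf2+DF2WT). In the mutant add-back it was combined with a YTHDF2 form mutated in its binding of m6A (shYthdf2+DF2Mut). Per the study's methods, hairpins were delivered by lentivirus and stable lines were selected with puromycin. In the study's text the parental ESCs of these lines carried a tdTomato reporter driven by the *MERVL* promoter. Which of the study's hairpins was used, and whether a line was 1 clone, were not given in the sources used here. The knockdown and both add-back groups share the *Ythdf2* hairpin, and both add-back groups overexpress a YTHDF2 protein.

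m6A is deposited on nuclear mRNA as it is transcribed, mostly near stop codons and in long exons. METTL3 is the catalytic subunit and METTL14 its RNA-binding partner. WTAP, VIRMA, ZC3H13, RBM15 and RBM15B form the regulatory part that places the core on RNA. METTL16 is a separate methyltransferase that acts on U6 small nuclear RNA and on hairpins in the mRNA of *Mat2a*. FTO and ALKBH5 are dioxygenases that remove the methyl group. YTHDF2 reads the mark in the cytoplasm and brings methylated mRNA to decay, and in ESCs the mark is known for its part in the exit from pluripotency.

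The libraries held between 31533129 and 35742335 reads assigned to genes, and the 10 genes took between 0.0842% and 0.0899% of them. *Ythdf2* had 2806 reads in the control, 662 in the knockdown, 7661 in the wild-type add-back and 6925 in the mutant add-back. The 7 ESC markers were present in every library, at a summed 4248 to 4372 CPM (counts per 1000000 reads after scaling), whereas the summed level of 7 genes of the 2-cell-like state was 132 and 145 CPM in shScram+EV and shYthdf2+DF2WT, and 451 and 399 CPM in shYthdf2+EV and shYthdf2+DF2Mut. Summed markers reached at most 10.3 CPM for primitive endoderm (5 genes, with *Foxa2* at 0 in shScram+EV), 33.5 CPM for trophectoderm (5 genes) and 41.9 CPM for fibroblasts (5 genes). In these bulk samples, fewer cells of a type and less RNA per cell cannot be told apart. Chromosome 12 stood apart, with a median log2 ratio of -0.29 over 418 genes in shYthdf2+EV against shScram+EV, while the medians of the other 18 autosomes lay between -0.04 and 0.04. None of the 10 genes lies there. The libraries also differed by base composition, shYthdf2+DF2WT the most. Over 10660 genes with a mean of at least 200 reads, the Spearman coefficient between log2 ratio and GC content was 0.54 in shYthdf2+DF2WT against shScram+EV, 0.42 against shYthdf2+EV and -0.50 for shYthdf2+DF2Mut against shYthdf2+DF2WT, but -0.02 for knockdown against control. For shYthdf2+DF2Mut it was -0.26 against shYthdf2+EV and -0.19 against shScram+EV. These points share the same libraries. The 10 genes are lower in GC (median 46.4%) than the tested genes (49.9%), so each ratio is given as scaled and, where it matters, also after a smooth correction for its GC content and its length of exons.

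METTL16 is the member whose direct RNA target is best defined, and that target was measured in the same libraries, so the matches to its motif in that target are shown here. The motif TACAGANAA, the DNA spelling of the METTL16 recognition sequence, was searched on the transcript strand only, in the protein-coding transcripts of GENCODE vM21 (mm10). *Mat2a*, which encodes the catalytic subunit of the enzyme that makes S-adenosylmethionine, the methyl donor, held 6 matches in its longest transcript. All 6 lie on the minus strand of chromosome 6, within the 3′ UTR of Mat2a-202 (exon 8, the last of 8). Capitals mark the motif.
match 1, chr6:72434235-72434263: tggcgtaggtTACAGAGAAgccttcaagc
match 2, chr6:72433451-72433479: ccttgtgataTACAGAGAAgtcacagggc
match 3, chr6:72433272-72433300: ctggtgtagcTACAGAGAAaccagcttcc
match 4, chr6:72433157-72433185: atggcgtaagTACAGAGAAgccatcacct
match 5, chr6:72433046-72433074: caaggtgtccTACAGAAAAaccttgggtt
match 6, chr6:72432938-72432966: gctggtgtggTACAGAGAAgccagcttgt
Matches 1, 2, 3, 4 and 6 share the 9 bases TACAGAGAA, and match 5 has TACAGAAAA. Of 21877 protein-coding genes, 10.8% held at least 1 match and only *Mat2a* held as many as 6. A match is a description of the letters, and these libraries do not measure methylation.

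The question asked of the 10 genes was whether loss of an m6A reader, or its return in a binding or a mutant form, went with other levels of the enzymes. Levels differed little. In none of the 6 comparisons between libraries was any of the 10 genes 2-fold higher or lower. Of all tested genes, 12.8% were past 2-fold either way in shYthdf2+EV against shScram+EV, 10.7% in shYthdf2+DF2WT against shYthdf2+EV, 6.03% in shYthdf2+DF2Mut against shYthdf2+EV and 11.6% in shYthdf2+DF2Mut against shYthdf2+DF2WT. It was 6.89% and 12.2% for the wild-type and mutant add-backs against shScram+EV. The 10 genes are all well counted, with 1000 to 4617 reads. Among the 6315 genes with a mean of at least 1000 reads, called deeply counted below, only 0.776%, 0.475%, 0.0475%, 0.554%, 0.0633% and 0.808% were past 2-fold in the same order of comparisons. At 1.5-fold none of the 10 genes was past the threshold either. Of all tested genes 26.7%, 23.3%, 15.3%, 27.1%, 16.4% and 25.7% were past 1.5-fold in the 6 comparisons, and 5.34%, 3.14%, 0.95%, 6.62%, 0.602% and 4.2% of deeply counted genes. A count of 0 in 10 is thus close to the share among genes of like depth. The median log2 ratio of the 10 genes was -0.01, -0.09, 0.02, 0.05, -0.05 and 0.06 in that order. The median of all tested genes lay within 0.012 of 0 in every comparison. Deeply counted genes had medians of -0.0004, -0.02, 0.03, 0.05, -0.03 and 0.02 in the same order. As each group had 1 library, replicates could not be compared. Intervals in parentheses are 95% intervals on read pairs (reads divided by 2), which cover counting error only and compare libraries, not conditions. They are Clopper-Pearson intervals for ratios of a single gene between libraries. For changes of read ratios between genes they are normal approximations on the log scale.

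**Figure D1:**
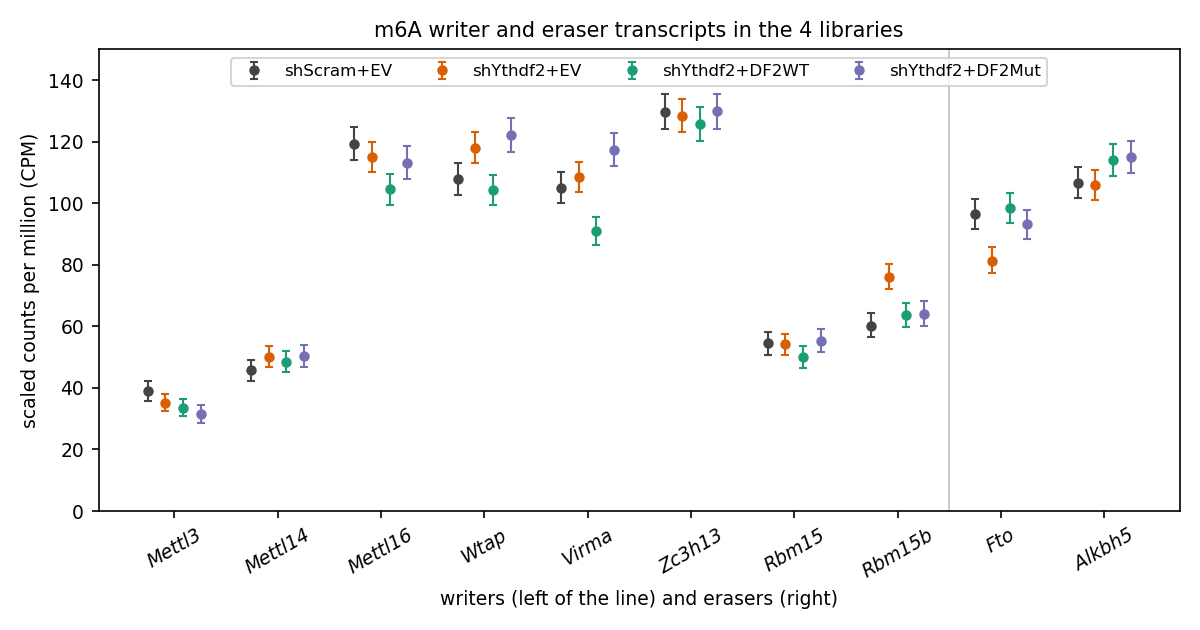
Scaled counts in CPM (linear axis from 0) of the 10 genes in the 4 libraries; points are single libraries, bars are 95% exact Poisson intervals on read pairs, and the line separates the 8 writers from the 2 erasers. *Rbm15b* stands out at 76.1 CPM and *Fto* at 81.4 CPM in shYthdf2+EV, and *Virma* at 90.9 CPM in shYthdf2+DF2WT, while *Zc3h13* stays between 125.7 and 129.8 CPM.

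*Mettl3*, the catalytic subunit, had 1230 reads in the control, 1262 in the knockdown, 1102 in the wild-type add-back and 1000 in the mutant add-back, or 38.9, 35.1, 33.5 and 31.4 CPM. It was highest in the control and lower in each library with the *Ythdf2* hairpin. The log2 ratio to shScram+EV was -0.15 (-0.31 to 0.01) for shYthdf2+EV, -0.22 (-0.39 to -0.05) for shYthdf2+DF2WT and -0.31 (-0.48 to -0.14) for shYthdf2+DF2Mut. These ratios share the control library. With the correction for GC content and length they were -0.14, -0.17 and -0.40. *Mettl14*, its partner, had 1443, 1803, 1599 and 1600 reads in the same order, or 45.7, 50.2, 48.6 and 50.3 CPM. It was lowest in the control, but the interval of its ratio on knockdown, 0.14 (-0.01 to 0.28), included 0, and the corrected ratio was 0.01. Within a library there were 0.852 *Mettl3* reads for each *Mettl14* read in the control, 0.700 in the knockdown, 0.689 in the wild-type add-back and 0.625 in the mutant add-back. The log2 change of this ratio from the control was -0.28 (-0.50 to -0.07) on knockdown and -0.45 (-0.67 to -0.22) with the mutant add-back. On knockdown the correction moved *Mettl14* (41.2% GC) from 0.14 to 0.01 and *Mettl3* (49.3% GC) from -0.15 to -0.14, so the gap between their ratios was narrower after it.

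*Mettl16* had 3769, 4131, 3439 and 3601 reads, or 119, 115, 104 and 113 CPM. It was lowest in shYthdf2+DF2WT. The log2 ratio was -0.05 (-0.14 to 0.04) on knockdown, and -0.14 (-0.23 to -0.04) for shYthdf2+DF2WT against shYthdf2+EV, which became 0.08 after the correction. The direction with the wild-type add-back therefore depended on the correction. Its target *Mat2a*, the transcript whose motif windows are given above, had 13736, 18814, 12110 and 16970 reads, or 435, 523, 368 and 534 CPM. *Mat2a* was high in the libraries with *Ythdf2* knocked down or with the mutant, and low in the control and with the wild-type add-back. The log2 ratio of *Mat2a* on knockdown was 0.27 (0.22 to 0.31), with -0.51 (-0.56 to -0.46) for wild-type add-back against knockdown, 0.03 (-0.01 to 0.07) for mutant against knockdown and 0.54 (0.49 to 0.58) for mutant against wild-type. After the correction the same 4 ratios were 0.20, -0.34, -0.01 and 0.32. The summed 2-cell-like markers above were high in the same libraries, and their part in this result was not tested. *Mettl16* itself did not follow this order of libraries.

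Of the regulatory subunits, *Zc3h13*, whose product holds the complex in the nucleus, was the most even. It had 4096 reads in the control, 4617 in the knockdown, 4136 in the wild-type add-back and 4128 in the mutant add-back, or 129.6, 128.4, 125.7 and 129.8 CPM. The highest and lowest library differed by 0.047 on the log2 scale, a range narrower than that of all but 0.380% of deeply counted genes. Its 6 ratios lay between -0.04 and 0.05, and every interval included 0.

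*Wtap*, which anchors METTL3 and METTL14 in nuclear speckles, had 3406, 4242, 3430 and 3885 reads, or 108, 118, 104 and 122 CPM. *Virma*, the large scaffold of the complex, had 3320, 3897, 2992 and 3728 reads, or 105, 108, 90.9 and 117 CPM. Both were lowest in shYthdf2+DF2WT and highest in shYthdf2+DF2Mut. As scaled, *Virma* had the widest range of the 10 genes. Its log2 ratio for mutant against wild-type add-back was 0.37 (0.27 to 0.47), at the 87.5th percentile of deeply counted genes. For *Wtap* this ratio was 0.23 (0.13 to 0.32). After the correction the *Virma* ratio was 0.10 and the *Wtap* ratio -0.17. *Virma* was also lower with the wild-type add-back than on knockdown, by a log2 ratio of -0.25 (-0.35 to -0.16), corrected to -0.10, and *Wtap* by -0.18 (-0.27 to -0.09), corrected to 0.13. The size for *Virma* and the sign for *Wtap* thus rested on how the base composition of the shYthdf2+DF2WT library was treated. On knockdown *Wtap* had a log2 ratio of 0.13 (0.04 to 0.22), corrected to -0.02, and *Virma* 0.05 (-0.05 to 0.14).

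RBM15 and its paralog RBM15B bind RNA and bring the complex to nearby adenosines. *Rbm15* had 1720 reads in the control, 1947 in the knockdown, 1645 in the wild-type add-back and 1762 in the mutant add-back, or 54.4, 54.2, 49.98 and 55.4 CPM. As scaled, its level in knockdown and control was nearly equal, with a log2 ratio of -0.01 (-0.14 to 0.13). The corrected ratio was -0.145, outside this interval. *Rbm15b* had 1904, 2735, 2099 and 2038 reads, or 60.3, 76.1, 63.8 and 64.1 CPM. *Rbm15b* was high in shYthdf2+EV alone, and the other 3 libraries lay close together. The knockdown ratio on the log2 scale was 0.34 (0.22 to 0.46), a 1.26-fold difference, at the 88.6th percentile of deeply counted genes. Against knockdown, the wild-type add-back had a ratio of -0.25 (-0.37 to -0.14) and the mutant add-back of -0.25 (-0.37 to -0.13). These 3 ratios share the shYthdf2+EV library. Mutant and wild-type add-back differed by 0.01 (-0.12 to 0.13). After the correction the 4 ratios were 0.41, -0.44, -0.25 and 0.17. The directions against shYthdf2+EV were the same under every scaling and correction computed.

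For each *Rbm15b* read there were 0.903 *Rbm15* reads in the control, 0.712 in the knockdown, 0.784 in the wild-type add-back and 0.865 in the mutant add-back. The knockdown library had the lowest ratio, with a log2 change of -0.34 (-0.52 to -0.17) from the control, and the mutant add-back was higher than knockdown by 0.28 (0.10 to 0.46). By reads, the paralogs were therefore not offset in equal measure between these libraries. The read ratios were not corrected for GC content, which is 44.2% for *Rbm15* and 56.4% for *Rbm15b*. On knockdown the corrected ratios were -0.145 for *Rbm15* and 0.41 for *Rbm15b*. For mutant against wild-type they were -0.26 and 0.17, and for shYthdf2+DF2WT against shScram+EV 0.05 and -0.03. The order of the add-backs, and the side of the wild-type add-back from the control, thus depended on the correction.

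**Figure D2:**
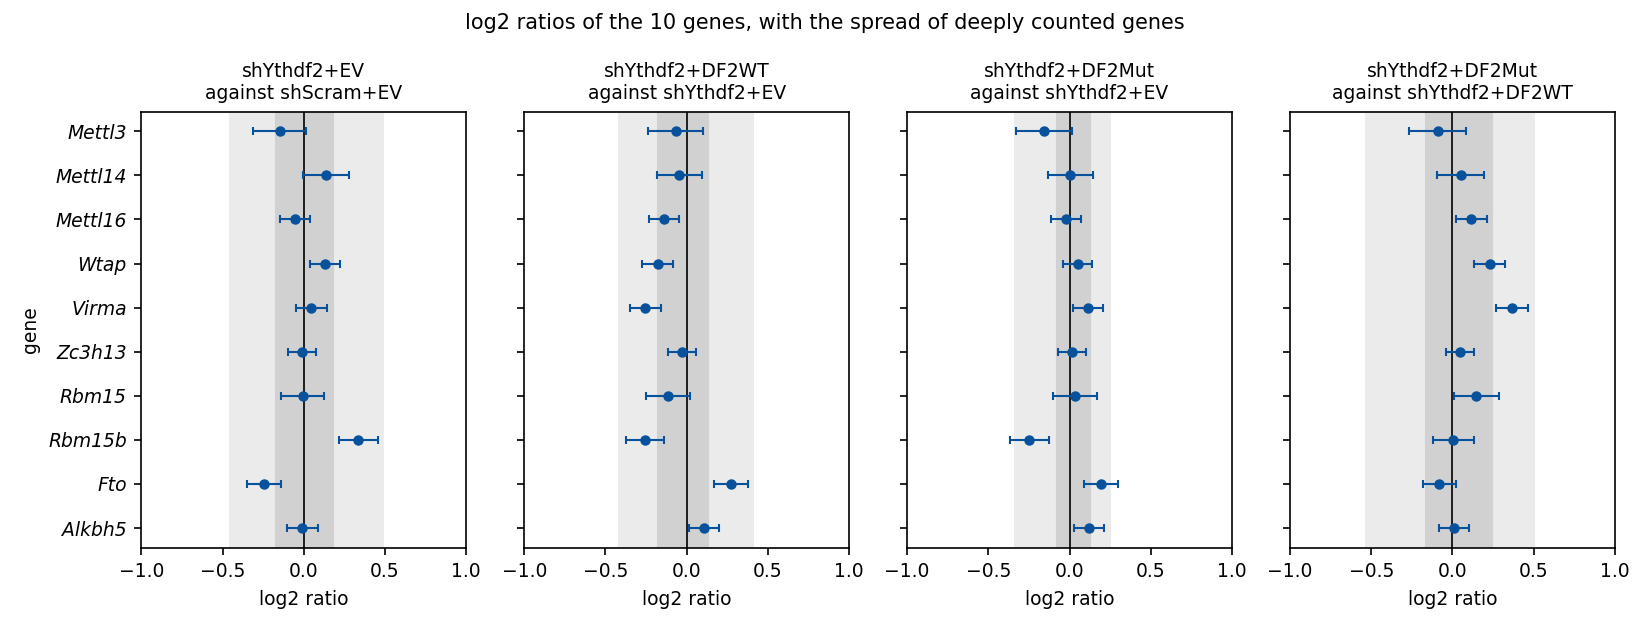
log2 ratios of the 10 genes in 4 comparisons of libraries; points are single ratios of scaled counts, bars 95% counting-error intervals, and the dark and light bands hold the middle 50% and 90% of the 6315 deeply counted genes. *Rbm15b* (0.34, -0.25, -0.25) and *Fto* (-0.24, 0.27, 0.19) lie on opposite sides of 0 in the first 3 panels, and *Virma* (0.37) lies farthest out in the last.

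The eraser *Fto*, which also acts on the methylated adenosine beside the mRNA cap, had 3046 reads in the control, 2925 in the knockdown, 3238 in the wild-type add-back and 2961 in the mutant add-back, or 96.4, 81.4, 98.4 and 93.1 CPM. As scaled, *Fto* was low in shYthdf2+EV alone. Knockdown against control gave a log2 ratio of -0.24 (-0.35 to -0.14), a level of 84.4% of the control, and 0.27 (0.17 to 0.38) and 0.19 (0.09 to 0.30) with the add-backs of wild-type and mutant against knockdown. The ratios share the shYthdf2+EV library. The corrected values were -0.24, 0.31 and 0.13, and the directions were the same under every scaling and correction computed. Among deeply counted genes these ratios stood at percentiles 16.8, 89.3 and 89.2, inside the middle 90% in each comparison. Mutant and wild-type add-back differed by -0.08 (-0.18 to 0.02), and by -0.20 after the correction, outside this interval.

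*Alkbh5* had 3369, 3805, 3755 and 3655 reads, or 107, 106, 114 and 115 CPM. Control and knockdown were level, at a log2 ratio of -0.01 (-0.11 to 0.09), and both add-backs were slightly higher than knockdown, by 0.11 (0.02 to 0.20) and 0.12 (0.03 to 0.21). The corrected ratios were 0.09 and 0.05. *Fto* to *Alkbh5* reads stood at 0.904 in the control, 0.769 in the knockdown, 0.862 in the wild-type add-back and 0.810 in the mutant add-back. The log2 change of this ratio was -0.23 (-0.37 to -0.09) on knockdown and 0.17 (0.03 to 0.30) for wild-type add-back against knockdown.

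The 8 writers summed to 20888, 24634, 20442 and 21742 reads and the 2 erasers to 6415, 6730, 6993 and 6616. There were 3.26 writer reads for each eraser read in the control, 3.66 in the knockdown, 2.92 in the wild-type add-back and 3.29 in the mutant add-back. The ratio was highest on knockdown and lowest with the wild-type add-back. Its log2 change was 0.17 (0.09 to 0.25) on knockdown, -0.32 (-0.40 to -0.25) for wild-type add-back against knockdown and 0.17 (0.09 to 0.25) for mutant against wild-type. These sums were not corrected for GC content, and the ratios of *Wtap*, *Mettl14*, *Mettl16* and *Rbm15* with the wild-type add-back changed sign under that correction.

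**Figure D3:**
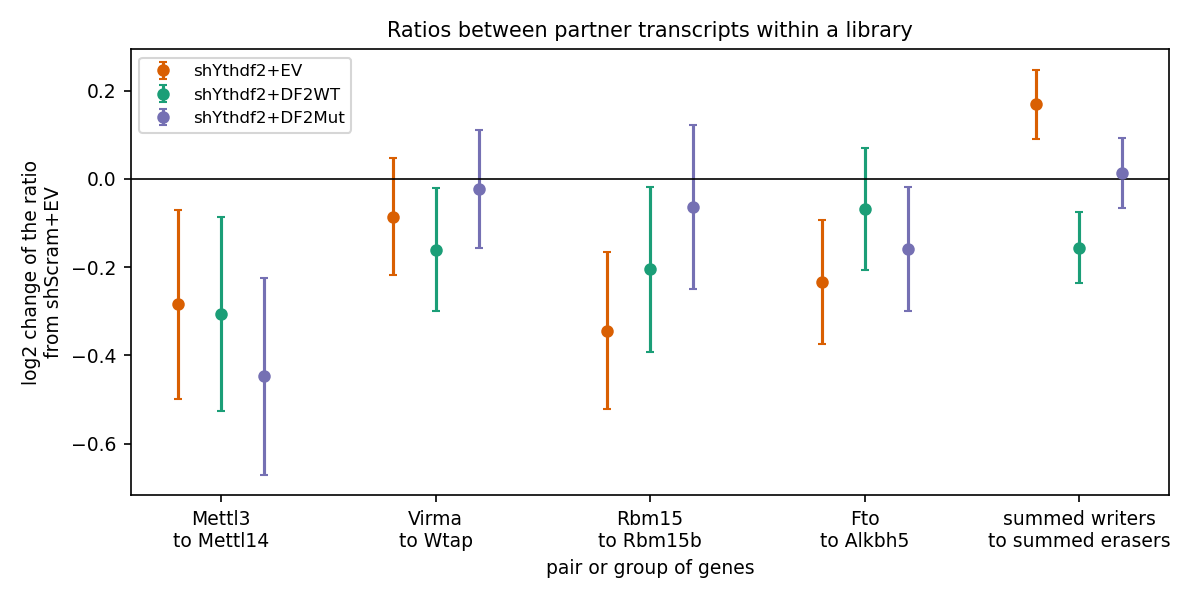
log2 change from shScram+EV of 4 read ratios between partner genes and of summed writers to summed erasers, for the other 3 libraries; bars are 95% counting-error intervals on read pairs. *Mettl3* to *Mettl14* is below the control in all 3 libraries (-0.28 in shYthdf2+EV to -0.45 in shYthdf2+DF2Mut), and summed writers to erasers is above it in shYthdf2+EV (0.17) and below it in shYthdf2+DF2WT (-0.16).

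By the rule that the counting-error interval excludes 0, 2 of the 10 genes were higher (*Rbm15b* and *Wtap*) and 1 lower (*Fto*) on knockdown, where 23.3% and 22.9% of all tested genes were. In the wild-type add-back against knockdown 2 were higher (*Fto* and *Alkbh5*) and 4 lower (*Mettl16*, *Wtap*, *Virma* and *Rbm15b*), against 21.2% and 21.6%. With the mutant add-back 3 were higher (*Fto*, *Alkbh5* and *Virma*) and 1 lower (*Rbm15b*), against 14.7% and 13%. For mutant against wild-type 4 were higher (*Virma*, *Wtap*, *Rbm15* and *Mettl16*) and none lower, against 24% and 23.7%. Against shScram+EV, the wild-type add-back had 1 higher (*Alkbh5*) and 3 lower (*Mettl3*, *Virma* and *Mettl16*), beside 15.9% and 16.4%, and the mutant add-back 3 higher (*Wtap*, *Virma* and *Alkbh5*) and 1 lower (*Mettl3*), beside 21.7% and 21%. Deeply counted genes met this rule more often, 67.1%, 63.9%, 49.9%, 71.1%, 58.1% and 63.1% of them in the 6 comparisons as ordered here. The 10 genes held 3, 6, 4, 4, 4 and 4 in that order, and no difference from those shares was tested.

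The range over the 4 libraries, the highest minus the lowest log2 CPM, gives the same picture. It was 0.37 for *Virma*, 0.34 for *Rbm15b*, 0.31 for *Mettl3*, 0.27 for *Fto*, 0.23 for *Wtap*, 0.19 for *Mettl16*, 0.15 for *Rbm15*, 0.14 for *Mettl14*, 0.12 for *Alkbh5* and 0.047 for *Zc3h13*. The median over deeply counted genes was 0.305, so 3 of the 10 genes lay above it and 7 below. The genes whose pattern over the 4 libraries was most like that of *Virma*, by Euclidean distance between centred log2 CPM among 10816 genes with a mean of at least 200 reads, were *Zbtb44* (distance 0.0128), *Gpcpd1* (0.0169) and *Fbxo5* (0.0211). The likeness is over 4 libraries only, and none of the 3 is a writer or eraser of m6A. Ranges and distances used CPM as scaled, without the correction for GC content and length. The range of *Virma* is its mutant against wild-type ratio, which the correction took from 0.37 to 0.10. In that comparison the corrected ratio of *Rbm15* was larger in size, at -0.26.

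**Figure D4:**
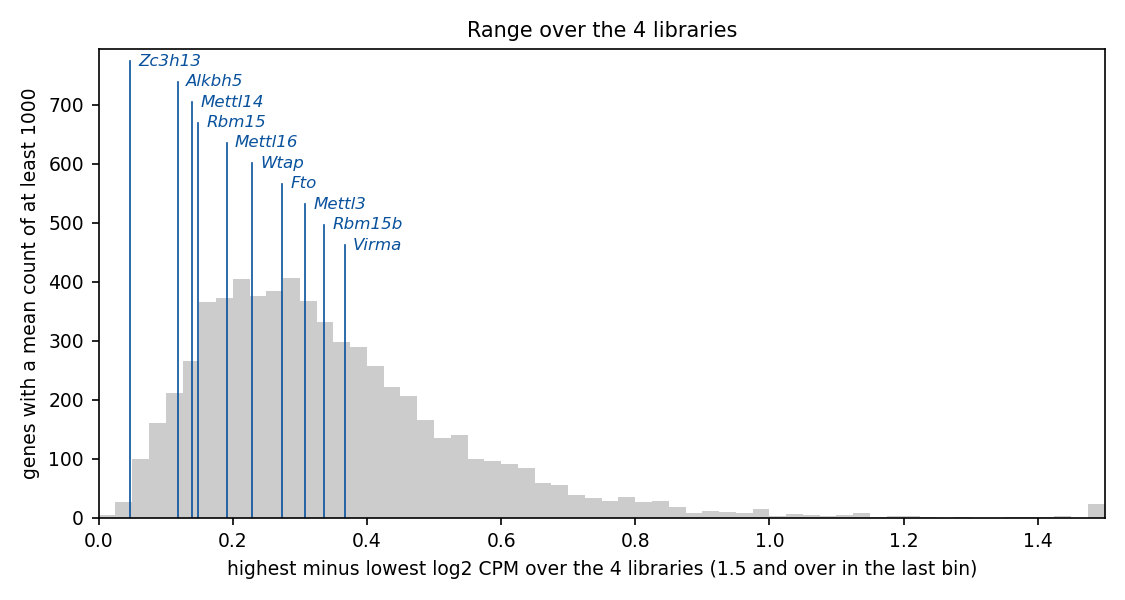
Histogram of the range of log2 CPM over the 4 libraries for 6315 genes with a mean of at least 1000 reads, with the 10 genes as vertical lines (line heights carry no value); ranges of 1.5 and over are in the last bin. The lines run from 0.047 (*Zc3h13*) to 0.37 (*Virma*), and 7 of 10 lie below the median of 0.305. CPM is as scaled, without the correction for GC content and length.

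Several of the differences changed side under the correction. The largest ratio that did so was that of *Wtap* for mutant against wild-type, from 0.23 to -0.17. Of the 10 genes, *Rbm15b* is the richest in GC (56.4%) and *Wtap* the poorest (39.6%). Under the correction the median log2 ratio of the 10 genes went from -0.09 to 0.08 for wild-type add-back against knockdown and from 0.05 to -0.18 for mutant against wild-type. The sign was kept by 6 of 10 genes in the former comparison and by 4 of 10 in the latter. On knockdown it was kept by 6 of 10, and the 4 that changed sign had ratios of -0.01 to 0.13 before the correction.

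**Figure D5:**
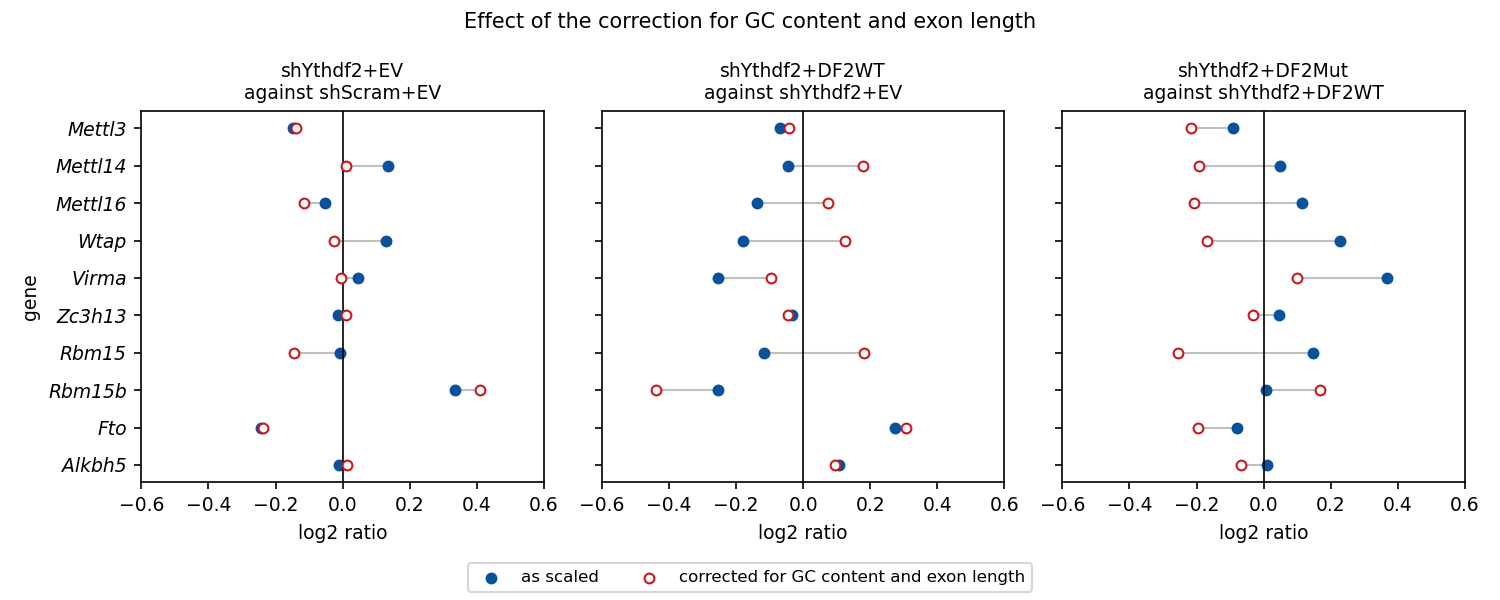
log2 ratios of the 10 genes in 3 comparisons, as scaled (filled) and corrected for GC content and exon length (open); grey lines join the values of a gene. *Rbm15b* and *Fto* keep their sides in the first 2 panels (*Rbm15b* 0.34 and 0.41, then -0.25 and -0.44), while *Wtap* crosses 0 in all 3 panels.

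Per length of exon, *Fto* (21.4 FPKM, here CPM per kilobase of exon) and *Zc3h13* (20.1) were the most abundant in shScram+EV, followed by *Alkbh5* (17.7), *Mettl14* (17.4), *Wtap* (16.4), *Virma* (14.8), *Rbm15b* (9.80), *Mettl16* (8.72), *Mettl3* (4.80) and *Rbm15* (1.99). Neighbours that did not differ beyond counting error were *Fto* and *Zc3h13*, *Alkbh5* and *Mettl14*, and *Mettl14* and *Wtap*. The order rests on the deposited lengths, which sum every annotated exon. With the longest GENCODE vM21 transcript, 8 of the 10 ranks moved: *Wtap* came to 33.8 FPKM and *Mettl3* to 18.0, while *Mettl14* came to 6.35. For *Rbm15* the deposited length is 27366 bases and the transcript 5967, and its level went from 1.99 to 9.12 FPKM. *Rbm15* ranked 10 in the former order and 9 in the latter.

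The genes lie on mm39 as follows. *Mettl3* is on chromosome 14 from 52532298 to 52548555 (minus strand) and *Zc3h13* on the same chromosome from 75521746 to 75581873 (plus). *Mettl14* is on chromosome 3 from 123161944 to 123179639 (minus) and *Rbm15* on it from 107212827 to 107244102 (minus). *Mettl16* is on chromosome 11 from 74661658 to 74716649 (plus) and *Alkbh5* on it from 60428509 to 60449338 (plus). *Wtap* is on chromosome 17 from 13185686 to 13211430 (minus), *Virma* on chromosome 4 from 11485958 to 11551143 (plus), *Rbm15b* on chromosome 9 from 106758127 to 106764274 (minus) and *Fto* on chromosome 8 from 92039995 to 92395061 (plus). *Rbm15b* is a single exon block, and *Fto* spreads 10 blocks of exons over the longest span. Reads shared with another gene were left out of the counts. This touched 4 of the genes, each with a partner on the opposite strand: *Alkbh5* shares 22.9% of its exon length with LOC118567927 (23 to 35 reads), *Rbm15* 3.60% with *Slc16a4*, *Mettl3* 3.12% with *Tox4* and *Rbm15b* 1.06% with *Dcaf1*. Promoter windows of 300 bases around the start site (RefSeq, GRCm38.p6) were matched for 8 of the 10 genes, all but *Mettl14* and *Virma*. All 8 were rich in CpG (ratio of observed to expected CpG over 0.6, GC over 50%), as were those of 35.8% of 27025 genes.

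Around the 10 genes, other parts of the pathway were counted from 4 lists. Among 6 other adenosine methyltransferases and cofactors, none was 1.5-fold higher or lower on knockdown, or with the wild-type add-back against knockdown, where 26.7% and 23.3% of tested genes were past 1.5-fold. *Cbll1* (Hakai, a ubiquitin ligase bound to the writer complex) had 1627, 1697, 1505 and 1586 reads and a log2 ratio on knockdown of -0.13 (-0.27 to 0.02), but it lies on chromosome 12, which was lower as a whole. *Trmt112*, the cofactor that stabilises several methyltransferases, METTL5 among them, had 622, 984, 808 and 551 reads. It was high on knockdown and low with the mutant add-back, with a log2 ratio between these libraries of -0.66 (-0.88 to -0.45), the single 1.5-fold difference on this list, where 15.3% of tested genes were past 1.5-fold. The corrected ratio was -0.42.

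Listed for the S-adenosylmethionine cycle were 5 genes, the AHCY-like *Ahcyl1* and *Ahcyl2* among them. They held 3 higher and 2 lower on knockdown by the interval rule, and 2 higher and 3 lower in the wild-type add-back against knockdown. All tested genes met this rule at 23.3% and 22.9% in the former comparison and at 21.2% and 21.6% in the latter, and deeply counted genes, either way, at 67.1% and 63.9%. Their median log2 ratios were 0.16 and -0.22, and none was past 1.5-fold in any comparison. *Mat2a* is described above. The other 7 AlkB dioxygenases had median ratios of 0.12 on knockdown, 0.13 with the wild-type add-back, -0.03 with the mutant add-back and -0.08 for mutant against wild-type. *Alkbh7*, a mitochondrial member, was the single gene of the list past 1.5-fold, in mutant against wild-type, where 27.1% of tested genes were. It had 284, 380, 392 and 229 reads and a ratio of -0.72 (-1.08 to -0.39), corrected to -0.27.

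The 12 readers held 6 higher and 4 lower on knockdown by the interval rule, which 23.3% and 22.9% of all tested genes and, either way, 67.1% of deeply counted genes met. They had a median log2 ratio of 0.12, above the -0.01 of the writers and erasers. The targeted *Ythdf2* was the single reader past 1.5-fold there, at -2.27 (-2.45 to -2.10). The wild-type add-back against knockdown held 3 higher and 7 lower, beside 21.2% and 21.6% of all tested genes and 63.9% of deeply counted genes either way, with a median of -0.16. *Ythdf3*, a paralog of *Ythdf2*, had 3985, 6190, 3711 and 5317 reads, and the wild-type add-back against knockdown had a ratio of -0.61 (-0.70 to -0.53), corrected to -0.27. It was high in shYthdf2+EV and shYthdf2+DF2Mut, the same libraries in which *Mat2a* was high. As scaled, *Ythdf1*, *Ythdc1*, *Ythdc2* and *Igf2bp1* were also higher in both than in the other libraries, so this was not particular to *Ythdf3*. *Igf2bp2* was lower in both, and the remaining readers followed neither order. For wild-type add-back against knockdown, the uncorrected ratios of the 10 writers and erasers lay between -0.25 and 0.27. The corrected ones lay between -0.44 (*Rbm15b*) and 0.31 (*Fto*).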

How the data were processed

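Poly(A)+ RNA-seq of mouse ESCs was used, in 4 libraries of 1 group each, grouped by title. The authors deposited read counts for 50559 genes. Per the file headers featureCounts 2.0.3 summed exons by gene symbol of the RefSeq annotation of UCSC for mm39, unstranded, with paired reads counted singly, so that mates usually both add to a gene. Reads with several alignments or several genes were left out. Per the labels the library was stranded, and fastp 0.19.4, HISAT2 2.2.1, DESeq2 1.40.2 and build mm10 are listed in the submitters' processing notes. The other deposited column is the summed exon length.

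Scaling used edgeR 4.0.16 (TMM, factors 0.976 to 1.01, R 4.3.3), a prior count of 0.5 was added, and log2 ratios were taken between libraries. No p-value was computed, as each group has 1 library. Intervals (95%) use read pairs and cover counting error only, since amplified reads are not independent molecules. They are Clopper-Pearson for ratios of a single gene and exact Poisson for levels. For changes of read ratios between genes they are normal approximations on the log scale. A floor of 3 counts corresponds to 0.0835 to 0.0949 CPM. FPKM is CPM per kilobase of exon. The counting script was tested on simulated data. GC content came from the longest GENCODE vM21 transcript (mm10), found for 91.4% of tested genes and for all 10 members, and was corrected with exon length by a smooth fit (mgcv 1.9.3).

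The members, lists and the naming rule (all members, *Cbll1*, *Mat2a*, *Ythdf2*, and pathway genes at least 1.5-fold different in the knockdown and rescue comparisons) were chosen with earlier results of these data known. Alternatives were scaling by total counts, by upper quartiles, by the size factors of DESeq2 1.42.0 or by TMM without mitochondrial genes and chromosomes 12 and Y, a prior count of 5, other count minimums and folds, and other lengths. Protein sequences were not used here.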

Additional observations from a re-analysis of the deposited data

How the results depend on the processing

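The count of 0 members past 2-fold, in each of the 6 comparisons, became 3 (shYthdf2+EV against shScram+EV), 6 (shYthdf2+DF2WT against shYthdf2+EV) and 4 in each of the other 4 when the interval excluding 0 was asked for instead; at 1.5-fold it stayed 0. Corrected for GC content and exon length, the members' median was 0.0848 for shYthdf2+DF2WT against shYthdf2+EV (-0.0922 before) and -0.181 for shYthdf2+DF2Mut against shYthdf2+DF2WT (0.0485 before). Ranks of the members by level moved for 9 of 10 genes by CPM and for 8 with transcript lengths, an alternative chosen after seeing the data. Of 360 single-gene alternatives, 336 stayed within the counting-error interval, and all 24 outside it came from the GC and length correction. That correction changed 25 signs of 60, and scalings or the prior changed 11, none of a ratio larger than 0.049 in size. Without the correction no ratio moved by more than 0.050. No scaling moved the median of all genes by over 0.1. The number of all genes past 2-fold depended on the count minimum and the fold. On knockdown it was 2380, and 7627, 835 and 4960 with a minimum of 1, a minimum of 50 and a 1.5-fold limit. The same 4 numbers were 1995, 6996, 614 and 4330 for shYthdf2+DF2WT against shYthdf2+EV, 1120, 5823, 118 and 2841 for shYthdf2+DF2Mut against shYthdf2+EV, 2157, 7070, 713 and 5028 for mutant against wild-type, 1281, 6016, 152 and 3053 for shYthdf2+DF2WT against shScram+EV, and 2275, 7199, 779 and 4768 for shYthdf2+DF2Mut against shScram+EV. No paired analysis was possible because each group had 1 library, and no library could be left out.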

Other observations

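*Mettl5*, the methyltransferase of 18S ribosomal RNA that works with *Trmt112*, was looked at after its values were seen, as it lay just under the 1.5-fold limit. It had 941 reads in the control, 902 in the knockdown, 1011 in the wild-type add-back and 661 in the mutant add-back. The mutant library was the low one, with a log2 ratio of -0.56 (-0.77 to -0.36) to shYthdf2+DF2WT, -0.27 (-0.48 to -0.07) to shYthdf2+EV and -0.52 (-0.73 to -0.31) to shScram+EV. The corrected ratios were -0.81, -0.31 and -0.67. *Trmt112* was also lowest in that library, with a ratio to shYthdf2+DF2WT of -0.50 (-0.73 to -0.28), but its corrected ratio was -0.07.

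On the list for the S-adenosylmethionine cycle, *Ahcyl1*, which encodes an AHCY-like protein, had 3942, 3185, 3732 and 3343 reads in that order. It was lowest on knockdown, with a log2 ratio of -0.49 (-0.59 to -0.40), and its ratio with the wild-type add-back against knockdown was 0.36 (0.26 to 0.45). The corrected ratios were -0.50 and 0.42. *Mat2b*, the regulatory subunit of the same enzyme as MAT2A, had 2289, 3210, 2399 and 2624 reads. Its ratio was 0.30 (0.19 to 0.41) on knockdown and -0.29 (-0.40 to -0.18) with the wild-type add-back, with corrected values of 0.24 and -0.20. Both genes were chosen after their values were seen.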
